A study of Mus musculus with 2 samples.

Results

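The genes of the Wnt pathway were examined for peaks of DLX2, a homeodomain protein that regulates transcription in the face and forebrain. The 51 genes comprised 19 Wnt ligands, 10 Frizzled receptors, 4 co-receptors, 5 secreted inhibitors, 7 effectors inside the cell, and 6 R-spondins and their Lgr receptors. They were taken by name from the pathway, with no measured value in the rule, out of 21779 protein-coding genes of the annotation. The choice was made with earlier results of these data known. The data were 2 DLX2 CUT&Tag libraries from maxillary process cells of wildtype embryos at E12.5, from C57BL/6 mice per the labels. The maxillary process is the outgrowth that forms the upper jaw, a mesenchyme under an epithelial sheet. CUT&Tag uses an antibody, here against DLX2, to direct a transposase to its target, and the fragments it releases are sequenced. Both libraries carried the same genotype and treatment and are called replicate 1 and replicate 2. Whether they came from separate litters is not given in the sources used here, so the spread between them may be technical. No control library was used here, so a peak is a site of enrichment over the background of its own library. The values below are descriptions with no test between groups.

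Wnt proteins are secreted lipid-modified ligands that bind Frizzled receptors. With the co-receptors LRP5 and LRP6 they keep β-catenin from being degraded, and β-catenin then enters the nucleus and works with TCF and LEF factors on target genes. With ROR receptors they act without β-catenin, on cell shape and movement. R-spondins, through Lgr receptors, raise the response of a cell to Wnt, and Dickkopf and Sfrp proteins lower it. In the embryonic face, Wnt signals from the epithelium drive the outgrowth and fusion of the facial processes, and loss of several of these genes leads to cleft lip or palate.

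Each gene was given a window that ran from 100 kb before its RefSeq extent to 100 kb after it. Replicate 1 had 28061 peaks in all and replicate 2 had 62093, and the windows of the 51 genes held 203 and 527 of them. Where a replicate 1 peak and a replicate 2 peak overlapped by 1 bp or more, the overlap is called a shared region. There were 76 shared regions around the Wnt genes, of 10921 in the whole data. All 51 genes had a replicate 2 peak in the window, against 91.7% of all protein-coding genes, and 47 had a replicate 1 peak, against 83.0%. A shared region was present for 35 of the 51 genes, or 68.6%, against 60.2% of all protein-coding genes. The Wnt genes are longer than most, with a median length of 33.0 kb against 17.2 kb. For each of them, the 200 protein-coding genes outside the list that are nearest in length were therefore taken for comparison. Of those, 65.2% had a shared region on average, which is close to the share of the Wnt genes.

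Summed over the 51 windows there were 79 shared regions, since 3 regions lay in the windows of 2 members, against 76.1 for the genes of like length, a ratio of 1.04. The same ratio was 1.03 for the peaks of replicate 1 alone and 1.20 for those of replicate 2 alone, a difference that sets the spread between replicates at 0.118 (SD, n = 2). With windows of 100 kb, the excess of shared regions over genes of like length was smaller than that spread. The ratio moved in both directions with the settings. At a −log10 q of at least 5 in both lists it was 0.403 on 4 regions, and at a fold of at least 5 it was 0.979 on 21 regions. It was 1.24 with a flank of 50 kb and 1.27 with a flank of 10 kb. Where a region counted only for its nearest coding gene, it was 1.43. The spread of 0.118 comes from single replicates with 100 kb windows and leaves out counting error. It therefore cannot say whether these larger ratios exceed the noise. Of the 51 genes, 22 had more shared regions than the mean of their genes of like length and 29 had fewer. The share of genes of like length with fewer shared regions than the member had a median of 39.5%. Counts this small often tie, so the remaining share is not all genes with more. For *Wnt2b*, the member at this median, 33.5% of its genes of like length had more and the rest had an equal count. The high shares given below for single genes are the extremes of 51 and were not tested. The median was 1 shared region per gene, as it was over all protein-coding genes. Wnt genes with 3 or more shared regions numbered 11, or 21.6%, against 18.4% of all protein-coding genes, a share not matched for length. A median of 3 other coding genes touched the windows of the Wnt genes, against 4 for all protein-coding genes. The mean was 3.27, against 4.76 for genes of like length. The part of this difference in the ratios, including that for the nearest coding gene, was not tested.

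**Figure D1:**
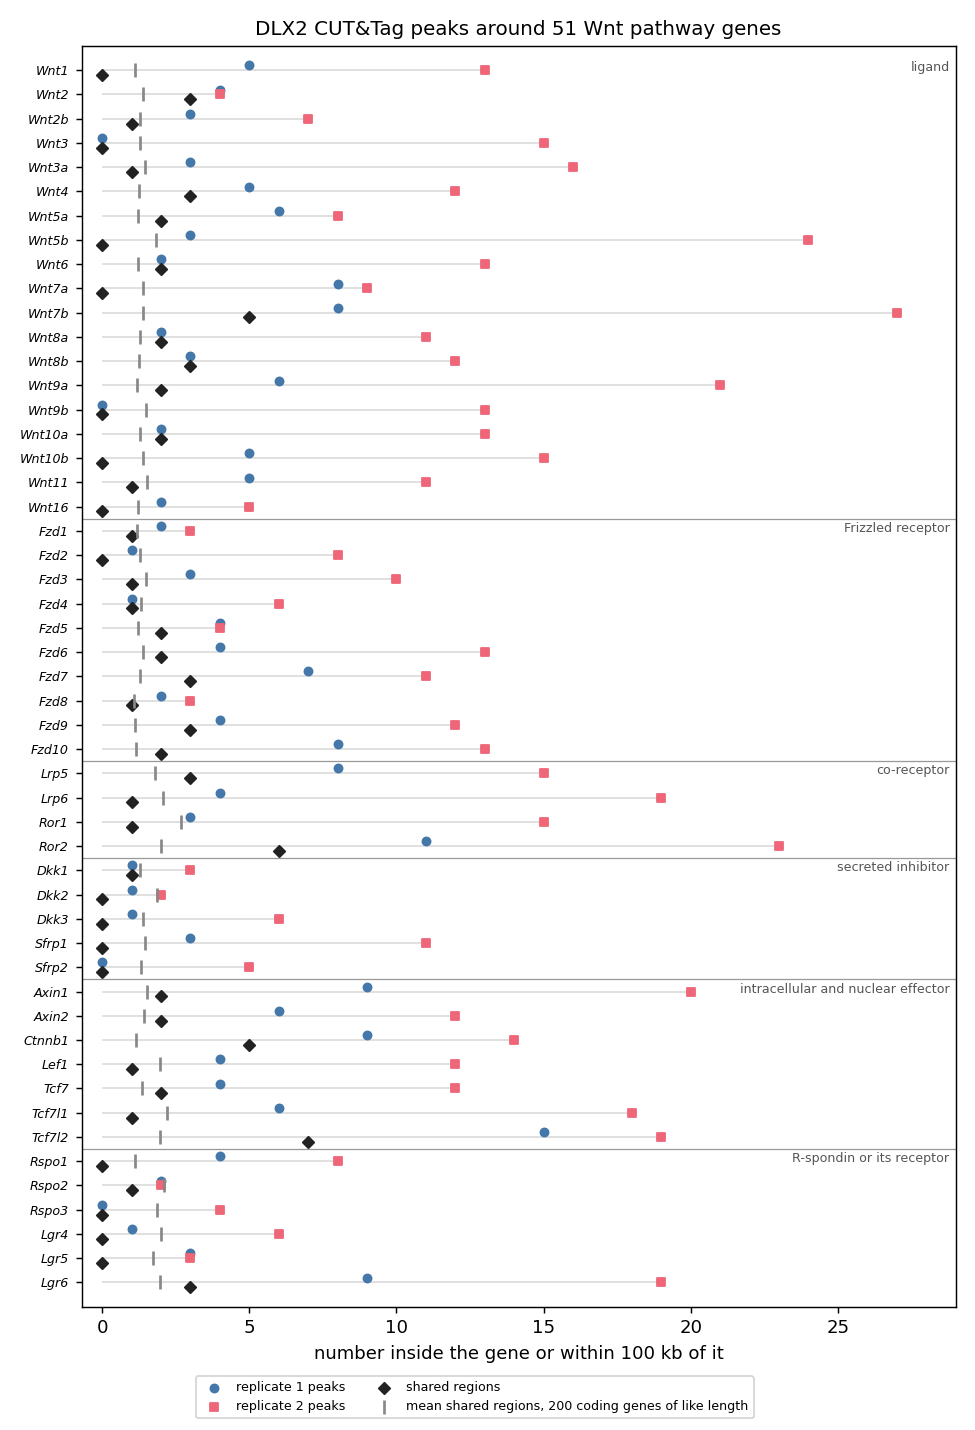
Number of DLX2 CUT&Tag peaks of replicate 1 (circles), of replicate 2 (squares) and of shared regions (diamonds) inside or within 100 kb of each of the 51 genes, with the mean number of shared regions over 200 coding genes of like length (grey ticks). *Tcf7l2* had 7 shared regions and *Ror2* had 6, while 16 genes had 0.

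The shared regions were of moderate strength. The fold enrichment at the summit, in the replicate where it is lower, had a median of 4.44 around the Wnt genes and 4.51 over all shared regions. It reached 7.52 at most around the Wnt genes, against 20.6 in the whole data. A lower fold of at least 5 was reached by 21 of the 76 regions, or 27.6%, against 35.1% of all shared regions. The fold was higher in replicate 1 for 41 regions and in replicate 2 for 35. It depends on the background of each library, whose lowest inferred value under these regions was 0.387 in replicate 1 and 1.10 in replicate 2. Folds of the 2 replicates are thus not on one scale, and a higher fold need not mean more fragments. The peaks under these regions rested on few fragments, with a median of 7 at the summit in replicate 1, from 4 to 16, and a median of 11 in replicate 2, from 7 to 35. These numbers were inferred from the deposited fold and −log10 p. Of the replicate 1 peaks around the Wnt genes, 37.4% overlapped one of replicate 2, with a 95% Wilson interval of 31.1 to 44.3%, against 38.9% in the whole list. In replicate 2 the share was 14.2% (interval 11.5 to 17.5%), against 17.2%. The intervals cover counting error only.

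**Figure D2:**
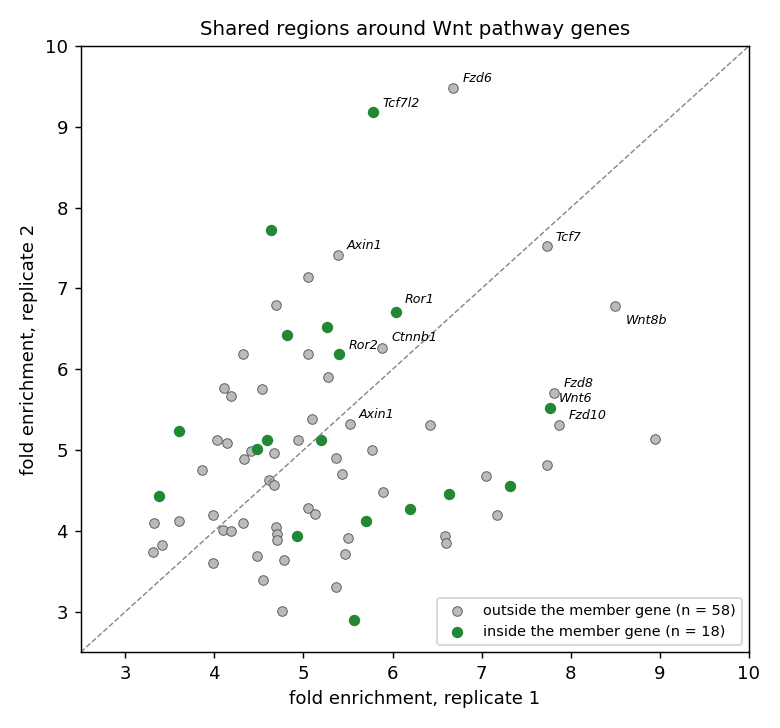
Fold enrichment of the 76 shared regions around the Wnt genes in replicate 1 (x axis) and replicate 2 (y axis), split into regions inside a member gene and outside it. The dashed line marks equal folds, and the named points are the 12 regions whose lower fold was highest, all at 5.31 or above.

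The windows were mostly flank, and most of the shared regions lay outside the genes. Inside the members there were 18, against 15.6 for genes of like length, a ratio of 1.15. Of the 76, 18 lay inside a member, 9 within 10 kb, 28 between 10 and 50 kb and 21 between 50 and 100 kb. The median lower fold was 4.58 inside, 4.62 within 10 kb, 4.37 from 10 to 50 kb and 4.21 beyond. A shared region lay inside 9 of the 51 genes, or 17.6%, against 14.6% of all protein-coding genes and 20.2% of genes of like length. Inside or within 2 kb there was one for 10 of 51, or 19.6%, against 16.0% of all protein-coding genes, a share not matched for length. A member was the nearest coding gene, or held the region, for 39 of the 76, and another coding gene was nearer or held it for 37. This changed with distance, from 18 of 18 inside and 7 of 9 within 10 kb to 11 of 28 between 10 and 50 kb and 3 of 21 beyond 50 kb. Of the 58 regions outside the members, 16 lay inside another coding gene, 10 in a long noncoding RNA gene alone and 32 in no annotated gene. The limit of 100 kb fell between a region 99.8 kb from *Fzd3*, whose folds were 4.94 and 5.12 in replicates 1 and 2, and a region 103 kb from *Wnt2b*, with folds of 7.39 and 7.89.

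**Figure D3:**
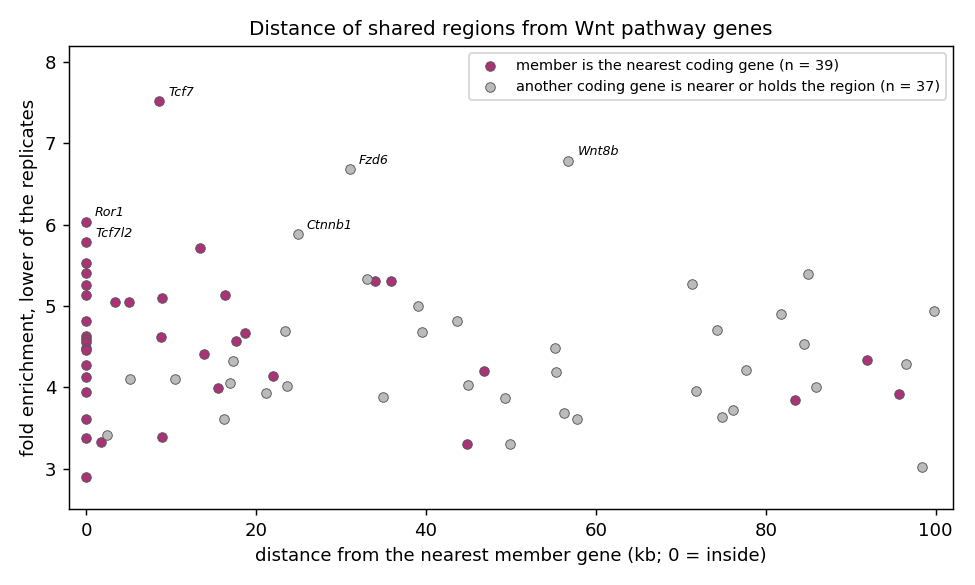
Distance of each of the 76 shared regions from the nearest member gene in kb (x axis, 0 for inside) against the lower of its folds in the 2 replicates (y axis). Coloured points have a member as the nearest coding gene (39) and grey points have another (37), most of which lie beyond 10 kb.

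The promoter windows used here held almost no peaks. RefSeq promoter windows of GRCm38.p6, from 250 bases before a start to 50 after it, matched 35 of the 51 genes with 44 windows. Starts outside these windows were not counted. None of the 44 had a replicate 1 peak, which allows a share of up to 6.82%, against 0.791% of 32851 promoter windows of all genes. A replicate 2 peak lay on 1 of the 44, or 2.27%, against 2.69% of all windows. That window belongs to *Wnt10b*, a ligand that activates β-catenin signalling and favours bone over fat formation. The peak ran from 98778298 to 98778494 on chromosome 15 and covered 103 bases of the window, with a fold of 3.72 and 8 fragments at the summit. Replicate 1 had no peak there, and its nearest lay 9.84 kb from the window.

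The promoter windows were also searched on both strands for TAATTA and TAATTG, versions of the core that DLX homeodomains prefer, and for CTTTGAT, a site of TCF and LEF factors. TAATTA was in 1 of the 44 windows of the Wnt genes, or 2.27%, against 5.29% of all 32851 windows. TAATTG was in 0 of the 44, against 8.00% of all windows. CTTTGAT was in 2 of the 44, or 4.55%, against 3.73%. Several windows of one gene can overlap, so the 44, from 35 genes, are not independent. The limit of 6.82% for a count of 0 assumes that they are. It therefore cannot say whether the share of TAATTG is below that of all windows. A match in this window is a description and not a site of binding. The windows below are printed 5′ to 3′ along the gene. They are the only one with a peak (*Wnt10b*, the bases under the replicate 2 peak in capitals), those that hold a searched motif (*Wnt8b*, TAATTA; *Wnt11* and *Wnt5b*, CTTTGAT or its reverse complement; motif in capitals), and that of *Wnt1*, a gene the study names in connection with DLX2, which held no peak and no searched motif.
Wnt10b, chr15:98778101-98778400, minus strand: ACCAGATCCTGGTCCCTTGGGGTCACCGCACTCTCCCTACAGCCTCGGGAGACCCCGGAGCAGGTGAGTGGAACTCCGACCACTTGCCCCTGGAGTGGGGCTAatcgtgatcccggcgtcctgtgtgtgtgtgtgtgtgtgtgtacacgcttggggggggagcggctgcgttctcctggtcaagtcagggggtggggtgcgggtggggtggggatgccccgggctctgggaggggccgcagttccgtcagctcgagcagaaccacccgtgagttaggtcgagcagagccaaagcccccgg
Wnt8b, chr19:44493222-44493521, plus strand: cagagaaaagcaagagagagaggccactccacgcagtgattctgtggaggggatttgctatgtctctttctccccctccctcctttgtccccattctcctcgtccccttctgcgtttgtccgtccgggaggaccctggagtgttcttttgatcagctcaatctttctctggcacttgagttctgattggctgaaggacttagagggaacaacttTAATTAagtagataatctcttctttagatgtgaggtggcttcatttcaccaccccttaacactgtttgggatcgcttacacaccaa
Wnt11, chr7:98834862-98835161, plus strand: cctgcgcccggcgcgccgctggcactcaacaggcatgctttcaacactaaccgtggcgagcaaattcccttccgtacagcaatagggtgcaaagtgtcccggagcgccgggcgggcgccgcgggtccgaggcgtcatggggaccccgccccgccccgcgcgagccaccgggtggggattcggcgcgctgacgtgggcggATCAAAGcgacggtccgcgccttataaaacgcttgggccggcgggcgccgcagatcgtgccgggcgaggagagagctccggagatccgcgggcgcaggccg
Wnt5b, chr6:119449337-119449636, minus strand: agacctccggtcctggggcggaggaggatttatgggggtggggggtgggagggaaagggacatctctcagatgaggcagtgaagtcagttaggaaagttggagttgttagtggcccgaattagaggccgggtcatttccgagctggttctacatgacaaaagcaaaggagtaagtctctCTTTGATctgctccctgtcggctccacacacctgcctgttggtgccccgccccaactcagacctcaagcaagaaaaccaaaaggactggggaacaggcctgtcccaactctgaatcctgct
Wnt1, chr15:98789607-98789906, plus strand: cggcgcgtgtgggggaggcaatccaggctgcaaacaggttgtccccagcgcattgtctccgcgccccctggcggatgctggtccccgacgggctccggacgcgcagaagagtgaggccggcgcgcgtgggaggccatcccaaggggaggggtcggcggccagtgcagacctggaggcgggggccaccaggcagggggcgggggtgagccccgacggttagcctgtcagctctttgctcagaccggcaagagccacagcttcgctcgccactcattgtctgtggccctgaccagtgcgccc

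The groups by role differed in their counts relative to genes of like length. The 7 effectors inside the cell had 20 shared regions against 11.6 for their genes of like length, a ratio of 1.72. Most of these lay around *Tcf7l2*, with 7, and *Ctnnb1*, with 5. The remaining effectors had 1 or 2 each, against means of 1.37 to 2.22 for their genes of like length. The 7 effectors had 53 peaks against 31.3 in replicate 1, a ratio of 1.69, and 107 against 71.5 in replicate 2. At a −log10 q of at least 5 in both lists, the ratio of the effectors was 0.669. The 4 co-receptors had 11 against 8.51, a ratio of 1.29, and the 10 Frizzled receptors had 16, a ratio of 1.28. For the Frizzled receptors the ratio was 0.976 in replicate 2 alone and 0.882 where each peak had to share 50% of its length. The 19 ligands had 27 against 25.5, a ratio of 1.06. The R-spondins and Lgr receptors had 4 against 10.8, a ratio of 0.371, and the 5 secreted inhibitors had 1 against 7.30, a ratio of 0.137. For the secreted inhibitors the ratio was 0.306 in replicate 1 and 0.582 in replicate 2, and for the R-spondins and Lgr receptors 0.674 and 0.668. The groups hold from 4 to 19 genes and were not tested against each other. The surroundings differed with the role. A mean of 0.8 other coding genes touched the windows of the secreted inhibitors, against 5.05 for their genes of like length. It was 2.20 against 6.13 for the Frizzled receptors and 2 against 3.12 for the co-receptors. The R-spondins and Lgr receptors had 3.5 against 3.74, the effectors 3.57 against 3.84 and the ligands 4.58 against 4.97. The part of gene density in these counts was not tested.

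**Figure D4:**
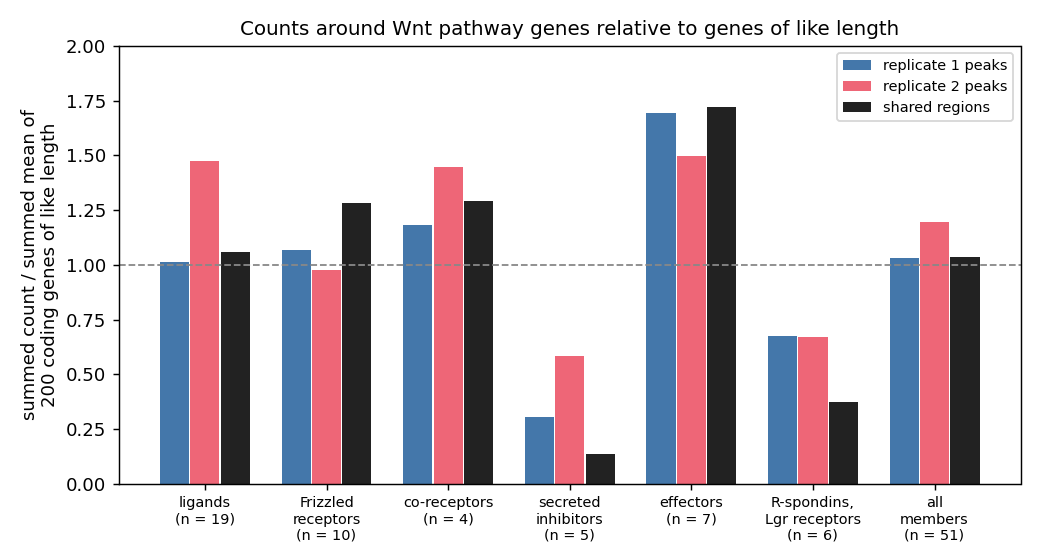
Summed number of replicate 1 peaks, replicate 2 peaks and shared regions around the members of each role, divided by the summed mean of 200 coding genes of like length per member (the dashed line is a ratio of 1). Effectors lie above 1 in all 3 measures (1.72 for shared regions, most of them around *Tcf7l2* with 7 and *Ctnnb1* with 5). Secreted inhibitors (0.306, 0.582 and 0.137) and R-spondins with Lgr receptors (0.674, 0.668 and 0.371) lie below 1.

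Among the effectors, *Tcf7l2* had the most shared regions of all 51 genes. It encodes TCF4, a DNA-binding partner of β-catenin, and spans 192 kb on chromosome 19. Replicate 1 had 15 peaks in its window and replicate 2 had 19, and 7 regions were shared. Fewer were shared for 97.5% of its genes of like length. Of the 7, 3 lay inside the gene, 2 upstream and 2 downstream, and for 6 of them *Tcf7l2* was the nearest coding gene. The strongest lay inside the gene at 55837084 to 55837435, with a fold of 5.78 on 9 fragments in replicate 1 and of 9.18 on 24 fragments in replicate 2. A neighbour inside the gene at 55845985 to 55846094 had folds of 4.63 and 7.72. The fold was higher in replicate 2 for both of these regions.

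*Tcf7*, which encodes the related factor TCF1, had the strongest shared region of the list. That region lay on chromosome 11 at 52291967 to 52292144, 8.58 kb upstream of the gene, in no annotated gene. Its fold was 7.73 on 11 fragments in replicate 1 and 7.52 on 18 fragments in replicate 2, so the folds were close. It was 1 of 4 regions around the Wnt genes that kept a −log10 q of at least 5 in both lists. *Tcf7* had 4 replicate 1 peaks, 12 replicate 2 peaks and 2 shared regions in its window. The remaining TCF and LEF genes, *Lef1* and *Tcf7l1*, had fewer shared regions than their genes of like length. *Lef1* had 4 and 12 peaks and 1 shared region, against a mean of 1.96. That region lay inside *Lef1* at 131191424 to 131191659 on chromosome 3, with folds of 6.64 and 4.46. *Tcf7l1*, mostly a repressor among these factors, had 6 and 18 peaks and 1 shared region, against a mean of 2.22.

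*Ctnnb1*, which encodes β-catenin, had 9 peaks of replicate 1 and 14 of replicate 2 in its window. It had 5 shared regions, and 99.0% of its genes of like length had fewer. None of the 5 lay inside *Ctnnb1* and *Ctnnb1* was the nearest coding gene for 1 of them. The other 4 lay 24.9 to 71.8 kb downstream, inside the neighbouring gene *Ulk4*. Of these, 2 lay close together, at 121031805 to 121032071 and 121032311 to 121032523. They rest on separate peaks in each list, and whether they are separate sites was not tested. The strongest of the 5 ran from 120985393 to 120985561 on chromosome 9, with folds of 5.89 and 6.26. Of the Axin genes, which encode scaffolds of the complex that degrades β-catenin, *Axin1* had 9 and 20 peaks and 2 shared regions. Both lay 33.1 kb or more from it, closer to or inside other genes, at folds of 5.52 and 5.33 for one and 5.39 and 7.42 for the other. *Axin2*, itself a target of Wnt signalling, had 6 and 12 peaks and 2 shared regions, both with *Axin2* as the nearest coding gene. One lay 1.70 kb upstream of the RefSeq extent at 108915994 to 108916128 on chromosome 11, with folds of 3.33 on 4 fragments and 4.09 on 9 fragments. The other lay 8.86 kb downstream, with folds of 4.62 and 4.63.

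Among the co-receptors, *Ror2* had the most shared regions. ROR2 is a receptor tyrosine kinase that takes up WNT5A signals in skeletal and facial growth. The window of *Ror2* held 11 and 23 peaks in replicates 1 and 2 and 6 shared regions, and 93.5% of its genes of like length had fewer. Inside the gene there were 4 of them and 5 of the 6 had *Ror2* as the nearest coding gene. The folds inside *Ror2* were 5.40 and 6.19 at 53264067 to 53264446 on chromosome 13, 5.26 and 6.53 at 53198438 to 53198537, 4.82 and 6.42 at 53269784 to 53269926, and 7.32 and 4.56 at 53254695 to 53254840. The fold was higher in replicate 2 at 3 of these and in replicate 1 at the last. The related receptor gene *Ror1*, the longest of the list at 349 kb, had 3 and 15 peaks and 1 shared region against a mean of 2.68. That region lay inside *Ror1* at 100398613 to 100398970 on chromosome 4, with folds of 6.04 on 9 fragments and 6.71 on 16 fragments.

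*Lrp5* and *Lrp6* encode the co-receptors of β-catenin signalling. *Lrp5* had 8 and 15 peaks and 3 shared regions, all inside the gene, against a mean of 1.78. A single replicate 2 peak with a fold of 5.13 covers 2 of these regions, which had folds of 4.59 and 5.19 in replicate 1. These 2 regions are thus not independent sites. The third, at 3612215 to 3612280 on chromosome 19, rests on other peaks, with folds of 5.57 and 2.89. *Lrp6*, whose loss causes cleft lip in mice, had 4 and 19 peaks and 1 shared region against a mean of 2.06. That region lay 23.6 kb from *Lrp6*, nearer to *Mansc1*, with folds of 4.09 and 4.02.

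Of the 10 Frizzled receptors, 9 had a shared region, against 60.2% of all protein-coding genes and 59.8% of genes of like length. These genes are short, with a median length of 4.59 kb. A region lay inside the gene for 0 of the 10, against 5.6% of genes of like length. Neither share was tested. A mean of 2.20 other coding genes touched their windows against 6.13 for genes of like length. *Fzd7* had 7 and 11 peaks and 3 shared regions, all between 74.2 and 81.8 kb upstream in a long noncoding RNA gene, *Gm33724*. *Fzd9* had 4 and 12 peaks and 3 shared regions, of which 1, at 8.93 kb upstream with folds of 5.09 and 5.39, had *Fzd9* as the nearest coding gene. *Fzd10* had 8 and 13 peaks and 2 shared regions, and no other coding gene touched its window. One lay 34.0 kb upstream, with folds of 7.87 on 12 fragments and 5.31 on 11 fragments. The other lay 46.8 kb downstream, with folds of 7.17 on 10 fragments and 4.20 on 9 fragments. Both had the higher fold in replicate 1, at like numbers of fragments.

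*Fzd6*, whose product acts in planar cell polarity, had 4 and 13 peaks and 2 shared regions. The one at 38974585 to 38975104 on chromosome 15, 31.0 kb from the gene, had the highest fold of any of the 76 regions in replicate 2, at 9.48 on 35 fragments, and 6.68 on 13 fragments in replicate 1. It lay nearer to *Baalc* than to *Fzd6*. *Fzd8* had 2 and 3 peaks and 1 shared region, 13.5 kb from the gene on chromosome 18 with folds of 7.82 and 5.71. *Fzd5*, a receptor needed in the eye, had 4 peaks in each replicate and 2 shared regions, both nearer to other coding genes. *Fzd1* with 2 and 3 peaks, *Fzd3* with 3 and 10 and *Fzd4* with 1 and 6 had 1 shared region each. *Fzd2*, in which mutations cause a skeletal disorder with a changed face, had 1 and 8 peaks and 0 shared regions, the nearest being 145 kb away.

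Of the 19 ligands, 12 had a shared region, or 63.2%, close to the 60.2% of all protein-coding genes and the 63.8% of genes of like length. *Wnt9b*, whose loss leads to cleft lip in mice, and *Wnt3*, its neighbour on chromosome 11, had 0 peaks in replicate 1, while replicate 2 had 13 around *Wnt9b* and 15 around *Wnt3*. Their windows overlap, so these counts share peaks, and the strongest replicate 2 fold was 7.62 for both. The nearest shared region lay 229 kb from *Wnt9b* and 276 kb from *Wnt3*. *Wnt5a*, a ligand of ROR2 that drives outgrowth of the facial processes, had 6 and 8 peaks and 2 shared regions, against a mean of 1.21. They lay 16.2 kb away with folds of 3.60 and 4.13, and 45.0 kb away with folds of 4.03 and 5.13, and *Erc2* was the nearer coding gene for both. *Wnt11* had 5 and 11 peaks and 1 shared region, 18.7 kb upstream with folds of 4.67 and 4.96.

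*Wnt1*, a ligand of the midbrain and dorsal neural tube, and *Wnt10b* lie side by side on chromosome 15. *Wnt1* had 5 peaks in replicate 1 and 13 in replicate 2, and *Wnt10b* had 5 and 15. Neither had a shared region, and the nearest lay 177 kb from *Wnt1* and 158 kb from *Wnt10b*. The closest peaks of the 2 replicates in these windows were 798 bp apart. The highest fold in the window of *Wnt1* was 4.88 in replicate 1 and 5.98 in replicate 2. The peaks of the replicates thus did not meet around *Wnt1*, although both lists had peaks within 100 kb.

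*Wnt7b* had the most shared regions of the ligands. It is made in epithelia and had 8 and 27 peaks and 5 shared regions, and 96.5% of its genes of like length had fewer. All 5 lay outside the gene, at distances of 8.95 to 23.4 kb, and 3 had *Wnt7b* as the nearest coding gene. The strongest had folds of 4.69 on 7 fragments and 6.79 on 20 fragments. *Wnt7a*, its close relative in sequence, had a like number of peaks in replicate 1, at 8, and 9 in replicate 2, yet 0 shared regions. The closest peaks of the replicates around *Wnt7a* were 604 bp apart.

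*Wnt2* had 4 peaks in each replicate and 3 shared regions, so that most of its peaks met. Of the 3, 2 lay inside the gene and 1 lay 3.40 kb upstream, at 18036168 to 18036323 on chromosome 6 with folds of 5.05 and 6.19. One of those inside, at 18031718 to 18031817, lay 1.02 kb from the promoter window, with folds of 3.38 on 4 fragments and 4.43 on 10 fragments. *Wnt2b* had 3 and 7 peaks and 1 shared region inside the gene, with folds of 6.20 and 4.27. *Wnt6* had 2 and 13 peaks and 2 shared regions at the lower end of its extent on chromosome 1. The stronger, at 74754274 to 74754433, had folds of 7.76 and 5.52 on 12 fragments in each replicate. It covered the 5′ end of the *Wnt6* extent, at 74754342, where no promoter window used here lay. The weaker, at 74754837 to 74754929, lay close to the stronger and 16.7 kb from the RefSeq promoter window used here. Whether the 2 are separate sites was not tested. Both regions also lay in the window of *Wnt10a*, which had 2 and 13 peaks and no other shared region.

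*Wnt4*, a ligand of the kidney and reproductive tract, had 5 and 12 peaks and 3 shared regions, all upstream and all with *Wnt4* as the nearest coding gene. One of them, 16.3 kb upstream at 137261144 to 137261339 on chromosome 4, had the highest fold of any of the 76 regions in replicate 1, at 8.94 on 16 fragments, and 5.13 on 15 fragments in replicate 2. *Wnt8b*, a forebrain ligand, had 3 and 12 peaks, and all 3 replicate 1 peaks met a replicate 2 peak. Its strongest region lay 56.8 kb upstream at 44436452 to 44436699 on chromosome 19, with folds of 8.50 and 6.79, and nearer to *Scd1*. *Wnt8a* had 2 and 11 peaks and 2 shared regions, with *Wnt8a* the nearest coding gene for neither. *Wnt9a* had 6 and 21 peaks and 2 shared regions, 1 of which also lay in the window of *Wnt3a*. *Wnt3a* had 3 and 16 peaks and no other shared region. *Wnt5b* had 3 peaks in replicate 1 and 24 in replicate 2, of which 12 lay inside the gene, and 0 shared regions, the closest peaks being 111 bp apart. *Wnt16* had 2 and 5 peaks and 0 shared regions.

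The 5 secreted inhibitors had 6 peaks in replicate 1 against 19.6 for genes of like length, and 27 against 46.4 in replicate 2. *Sfrp1*, whose product binds Wnt ligands, was the exception in replicate 2, with 11 peaks against a mean of 9.11. A shared region was present for 1 of the 5, against 60.2% of all protein-coding genes and 66.4% of genes of like length, which was not tested. *Dkk1*, which blocks LRP5 and LRP6, had 1 and 3 peaks and 1 shared region. It lay 17.3 kb upstream, inside *Prkg1*, with folds of 4.33 on 5 fragments and 6.19 on 12 fragments. *Dkk2* had 1 and 2 peaks, *Dkk3* had 1 and 6, *Sfrp1* had 3 and 11, and *Sfrp2* had 0 and 5, and none of these had a shared region. The nearest shared region lay between 130 kb, for *Sfrp1*, and 522 kb, for *Dkk3*.

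Of the 6 R-spondins and their receptors, 2 had a shared region, *Rspo2* and *Lgr6*. This compares with 60.2% of all protein-coding genes and 69.25% of genes of like length, and was not tested. *Rspo2*, whose loss causes cleft palate and limb defects, had 2 peaks in each replicate and 1 shared region, 49.3 kb from the gene and nearer to *Eif3e*, with folds of 3.87 and 4.76. *Lgr6* had 9 and 19 peaks and 3 shared regions, 1 of them inside the gene at 135047000 to 135047189 on chromosome 1 with folds of 4.48 and 5.02. *Rspo1* had 4 and 8 peaks, *Rspo3* 0 and 4, *Lgr4* 1 and 6 and *Lgr5* 3 and 3, with no shared region. *Lgr4* was the farthest of all 51 genes from one, at 823 kb, and all 6 of its replicate 2 peaks lay inside the gene.

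Of the 51 genes, 16 had no shared region, and 12 of these had peaks in both lists. In those 12 windows the closest peaks of the 2 replicates lay from 111 bp to 48066 bp apart. The nearest shared region of the 16 genes lay from 109 to 823 kb away. Their strongest fold ranged from 3.36 to 6.37 in replicate 1 and from 3.81 to 7.62 in replicate 2.

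A wider list of 46 further Wnt pathway genes was counted in the same way. It was chosen by name, with earlier results of these data known. It holds ligand processing, inhibitors, planar polarity genes, the degradation complex and nuclear cofactors. A shared region was present for 39 of the 46, or 84.8%, against 60.2% of all protein-coding genes and 64.9% of genes of like length. For 9 of them, or 19.6%, one lay inside the gene, against 14.6% of all protein-coding genes and 20.4% of genes of like length. Their windows had a sum of 83 shared regions against 67.5 for genes of like length, a ratio of 1.23, with a median of 2 per gene. Some of these windows overlap, as for *Kremen1* and *Znrf3*, so a region can count for more than 1 gene. The shares and the ratio of this list were not tested. The alternative settings were not run for it, and the density of coding genes in its windows was not compared. *Apc2*, a relative of the scaffold gene *Apc*, had 8 replicate 1 peaks, 21 replicate 2 peaks and 5 shared regions. *Draxin*, a secreted axon guidance protein that can also inhibit Wnt signalling, had 7, 19 and 5, and *Wif1*, which binds Wnt ligands outside the cell, had 7, 12 and 5. The Wnt feedback inhibitor *Nkd1* had 7, 20 and 4, the planar polarity gene *Prickle2* had 6, 19 and 4, and the kinase gene *Csnk1a1* had 5, 13 and 4. There was no shared region for *Notum*, *Dvl3*, *Kremen2*, *Vangl1*, *Pygo1*, *Wls* or *Porcn*, the last of these on the X chromosome.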

How the data were processed

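The 2 wildtype samples were the replicates of 1 group, numbered in the order of their records. Per the submitters' processing notes, Trim Galore 0.4.5, Bowtie 1.1.2 and MACS2 2.2.7 were used with build mm10, which is GRCm38. The study's methods name Trim Galore and bowtie2 at other versions, and the labels describe sonicated chromatin where the methods describe transposase tagging. Settings of the peak caller are not given in the sources used here. The authors listed peaks per sample, with a deposited score (10 times −log10 q, cut to a whole number), a fold enrichment ratio at the summit over the library's own background, −log10 p and −log10 q values that stop at a q of 0.1, and the summit position. These lists were used whole. They hold more peaks than the study counted, and the filter behind its counts is not given in the sources used here. Read totals are not given, so depth was judged by fragments at the summit. They were inferred on the assumption that the fold is fragments plus 1 over background plus 1 and that p is a Poisson tail. A whole number came out, with a tolerance of 0.001, for 100% of the peaks around the members in each replicate.

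Gene extents came from RefSeq for GRCm38.p6. Coding genes of chromosomes 1 to 19, X and Y were used. Of all genes there, 340 listed before position 3000000 on chromosomes other than Y were left out, because their coordinates cannot be placed. Strand was known for 35 members, and for the others distance is given without direction. No genome sequence was used here. Genes named in the text were set by a rule: the 20 members with the most shared regions, the members nearest to the 12 strongest regions, those with a region inside or within 2 kb, and 10 genes known from the face or named by the study. The remaining members are also given by their counts. The rule, members and lists were chosen with earlier results of these data known. The code was tested on simulated data, and bedtools 2.31.1 also gave 10921 shared regions. Intervals were from statsmodels 0.14.6, Poisson tails from scipy 1.17.1, tables from pandas 2.3.3 with numpy 2.4.6 under Python 3.11.15, and plots from matplotlib 3.10.9.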

Additional observations from a re-analysis of the deposited data

How the results depend on the processing

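With 2 replicates of 1 group and no control used here, background common to the replicates cannot be told apart from binding. Of 45 alternative values of the counts and the ratio to genes of like length, 16 stayed within 1.5 times the main count or within 1 SD of the main ratio. A limit of 5 on −log10 q left 18 peaks in replicate 1 and 52 in replicate 2 around the members, 4 shared regions, around *Wnt4*, *Wnt8b*, *Fzd6* and *Tcf7*, 4 members with one, 0 regions inside members and a ratio of 0.403. A limit of 5 on the fold left 62 and 79 peaks, 21 shared regions, 17 members with one and 6 regions inside. With 50% of each peak shared, 41 regions were left, 8 of them inside members. With 1 replicate alone in place of shared regions, there were 203 to 527 peaks around members, 47 to 51 members with one, 44 to 130 peaks inside and a ratio of 1.03 to 1.20. With a flank of 50 kb the ratio was 1.24. With a flank of 10 kb there were 66 and 180 peaks, 27 shared regions, 15 members with one and a ratio of 1.27. With only the nearest coding gene counted, there were 107 and 251 peaks, 39 shared regions, 19 members and a ratio of 1.43. The lower counts follow from fewer peaks or narrower windows; the cause of the changed ratios was not tested. Of 279 alternative counts for the 31 genes of the naming rule, 109 were lower and 53 higher by more than 1.5 times. The ratios by role were examined after the data were seen. Over 11 alternatives the effectors ranged from 0.669, at the limit on −log10 q, to 2.03, above 1 in 10, the co-receptors from 0 to 1.88 and the Frizzled receptors from 0.669 to 2.18. The secreted inhibitors ranged from 0 to 0.582 and the R-spondins with their receptors from 0 to 0.674. The ligands ranged from 0.635 to 1.95. No paired analysis was possible because there is 1 group.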
